A study of Mus musculus with 12 samples.

Results

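The genes described here are the SIBLING matrix proteins of bone (Dmp1, Mepe, Spp1, Ibsp and Dspp) and 5 genes of phosphate and pyrophosphate handling (Phex, Fgf23, Slc20a1, Slc20a2 and Enpp1). They were chosen by name, as 10 of the 37583 Ensembl mouse gene IDs counted in every library. RNA of Ocy454 cells, a mouse osteocyte line, was sequenced as 12 libraries, 3 in each of 4 groups. Control cells are labelled as original cells, and by the methods of the study its controls carried a lentivirus with no guide sequence. DKO cells are labelled as having HDAC4 and HDAC5, a pair of class IIa histone deacetylases, deleted. Each genotype was left static or exposed for 3 h to FFSS (fluid flow shear stress), which was applied by rotating the culture dishes. All groups had been kept for 14 days at 37 °C, the temperature at which the temperature-sensitive large T antigen that the line carries is inactive. Ocy454 cells also carry a GFP transgene under a Dmp1 promoter, and the study worked from 1 single-cell subclone of the line. Control and DKO libraries each came from 1 line, which means that an effect of the deletions and a difference between lines cannot be told apart. The labels do not say whether replicates came from separate cultures, so p-values measure the spread between these libraries, which may be technical.

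SIBLING proteins are acidic, heavily phosphorylated glycoproteins that bind integrins and mineral and that bone and tooth cells secrete into the matrix. Their genes lie side by side in mammals. Osteocytes are the main source of FGF23, the hormone that makes the kidney excrete phosphate, and loss of DMP1 or of the peptidase PHEX raises it. PiT-1 (Slc20a1) and PiT-2 (Slc20a2) carry sodium and phosphate into cells, and ENPP1 makes pyrophosphate, which holds back mineral formation.

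In the mm9 genome the 5 SIBLING genes stood in 1 run on chromosome 5, all on the plus strand. The annotation had 0 other protein-coding genes between them, and noncoding genes were not looked for. The run spanned 270 kb, from 104599731 to 104870069. Dspp came first (104599731 to 104609146), followed by Dmp1 (104631632 to 104643121), Ibsp (104728190 to 104740488), Mepe (104754348 to 104767630) and Spp1 (104864137 to 104870069). The phosphate genes lay apart, with Phex on chromosome X (153596618 to 153853244, minus strand), Enpp1 on chromosome 10 (24357720 to 24431965, minus strand), Fgf23 on chromosome 6 (127022920 to 127031426), Slc20a1 on chromosome 2 (129024500 to 129037352) and Slc20a2 on chromosome 8 (23587172 to 23680079). Values are counts of reads in the exons of these gene models. Of the 10 genes, 8 shared no exon bases with another gene. Slc20a1 shared 452 bases with 9830144P21Rik, which had 1.05% as many counts. Slc20a2 shared 180 bases with AI316807, which had 31.6% as many counts. HTSeq counts a read that falls in 2 genes at once to neither, and the methods of the study do not say whether the counting was stranded. How many reads of Slc20a2, if any, were lost in this way was not measured, and its level is uncertain.

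RefSeq promoter windows (GRCm38.p6) were at hand for 8 of the 10 genes. The 250 bases before the start site are shown for Dmp1, Ibsp, Mepe, Spp1 and Phex, because these 5 genes differed most between DKO and control cells under FFSS, and the position of each is in GRCm38.p6 and not in mm9. For Dmp1 the second of the 2 listed start sites is shown and for Spp1 the first of 2. Capitals mark every match to the letters of a RUNX site (TGTGGT or its complement) or of a TATA box (TATAAA, this strand only).
Dmp1, chr5:104202367-104202616, plus strand: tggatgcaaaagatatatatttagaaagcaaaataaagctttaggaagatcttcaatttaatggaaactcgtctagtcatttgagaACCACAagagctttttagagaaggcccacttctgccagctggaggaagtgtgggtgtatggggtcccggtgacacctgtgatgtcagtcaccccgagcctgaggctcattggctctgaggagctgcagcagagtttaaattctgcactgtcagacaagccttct
Ibsp, chr5:104299037-104299286, plus strand: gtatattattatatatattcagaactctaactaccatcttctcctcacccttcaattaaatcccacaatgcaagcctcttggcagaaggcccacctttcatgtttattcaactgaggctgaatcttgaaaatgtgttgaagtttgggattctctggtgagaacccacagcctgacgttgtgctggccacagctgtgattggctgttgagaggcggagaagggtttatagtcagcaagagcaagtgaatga
Mepe, chr5:104325079-104325328, plus strand: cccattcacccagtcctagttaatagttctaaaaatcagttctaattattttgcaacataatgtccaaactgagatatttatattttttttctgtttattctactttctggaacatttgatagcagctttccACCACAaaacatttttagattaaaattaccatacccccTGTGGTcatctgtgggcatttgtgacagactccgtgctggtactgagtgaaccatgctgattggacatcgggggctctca
Spp1, chr5:104434861-104435110, plus strand: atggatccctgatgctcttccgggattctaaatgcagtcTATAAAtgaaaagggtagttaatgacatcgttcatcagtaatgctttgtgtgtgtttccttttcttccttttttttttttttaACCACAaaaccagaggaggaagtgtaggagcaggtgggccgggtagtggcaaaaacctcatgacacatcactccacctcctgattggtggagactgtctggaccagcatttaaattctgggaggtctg
Phex, chrX:157415287-157415536, minus strand: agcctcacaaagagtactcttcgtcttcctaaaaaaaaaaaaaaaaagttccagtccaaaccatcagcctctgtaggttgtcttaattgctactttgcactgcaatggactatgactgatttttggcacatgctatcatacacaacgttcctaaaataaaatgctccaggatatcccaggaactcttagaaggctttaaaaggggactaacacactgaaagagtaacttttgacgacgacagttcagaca
The RUNX letters, searched on both strands, were in 5 of the 11 windows of the 8 genes. They begin 118 and 80 bases before the start of Mepe, 164 bases before the second start of Dmp1, 128 bases before the first start of Spp1, 144 bases before that of Enpp1 and 77 bases before the first of 2 starts of Slc20a1, a gene with fewer reads in DKO cells. The windows of Ibsp, Phex and Fgf23 and the other start sites of Dmp1, Spp1 and Slc20a1 lack them, so that for Dmp1 and Spp1 the window printed is the one with a match. Windows of the same length hold these letters in 14% of the 32851 windows in the table. TATAAA was found only in the Spp1 window among these 5, 211 bases before the start, and in 7.59% of all windows. The cAMP response element letters TGACGTCA (both strands) and the MEF2 consensus (by name, 10 letters, both strands) were in none of these windows, against 1.55% and 2.92% of all windows. Such matches describe the letters alone.

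Each library held between 17.6 and 19.2 M reads in genes. The share of reads outside genes was 5.1% to 5.21% in control static, 7.07% to 7.14% in DKO static and 7.93% to 8.55% in DKO FFSS libraries. In control FFSS it was 5.87% in replicate 1, 9.19% in replicate 2 and 10% in replicate 3, and replicate 1 also stood apart from the other two in its counts, so that results that rest on it are given with and without it. Biological coefficients of variation were 0.0328 in control static, 0.0448 in DKO static, 0.0359 in DKO FFSS and 0.19 in control FFSS libraries. Hdac4 (the longer of its 2 gene IDs) had 458 to 550 reads in static control libraries, against 220 to 309 for static DKO, and Hdac5 had 2421 to 2706 and 1461 to 1634. In FFSS libraries Hdac4 had 597 to 860 and 214 to 250 reads, and Hdac5 had 1457 to 1755 in control and 1553 to 1687 in DKO, which overlap. Reads over a whole gene do not read out a short deletion, so these values do not settle the labels.

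**Figure D1:**
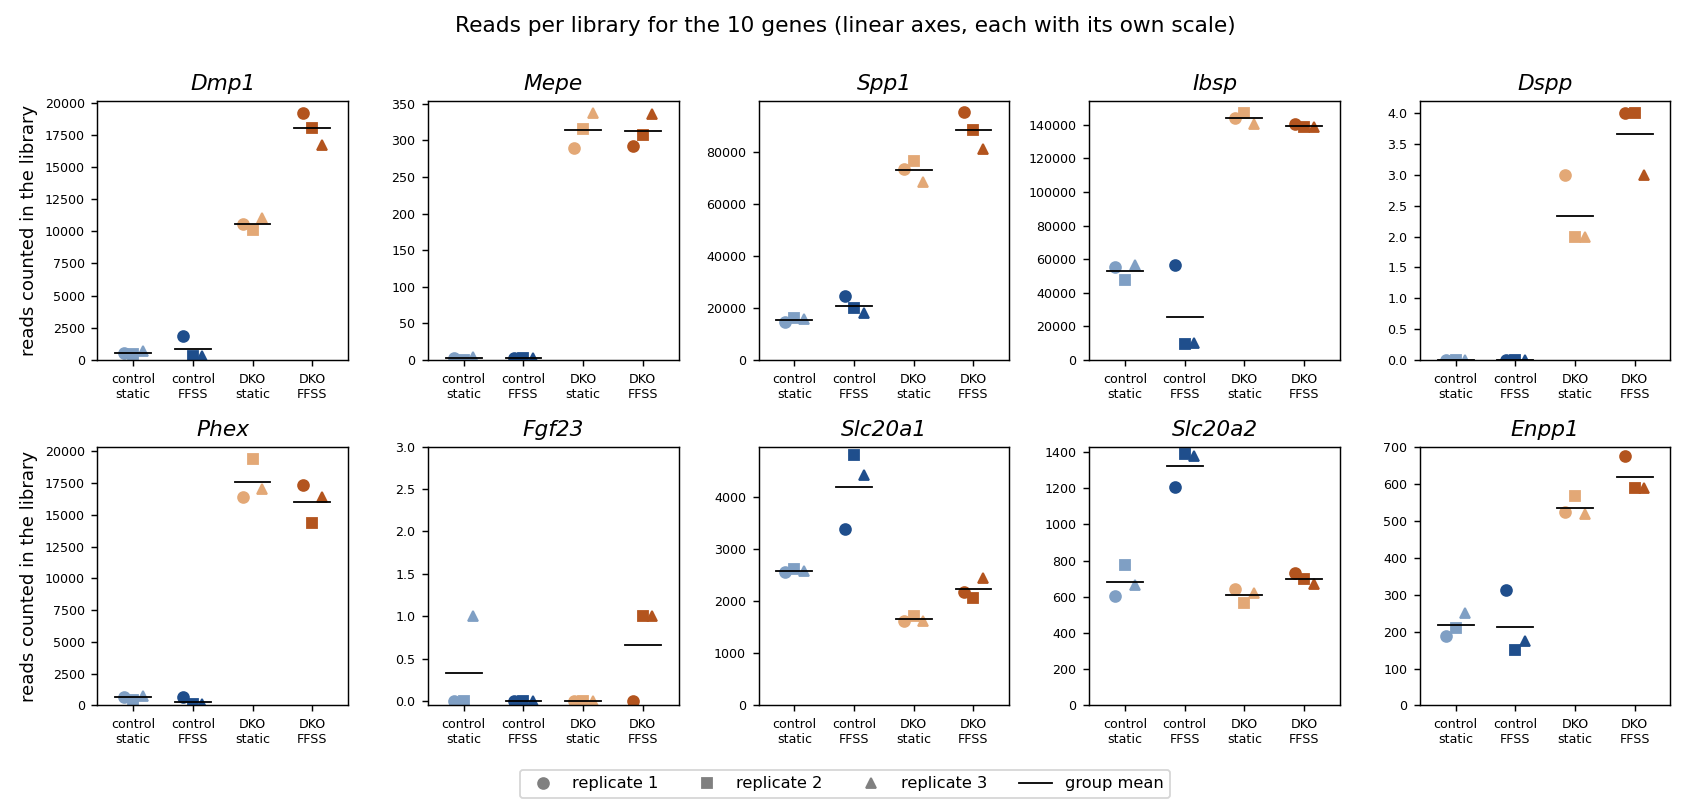
Reads counted in each of the 12 libraries for the 10 genes (y axes linear, each with its own scale), with symbols for the replicate and a bar for the group mean. Dmp1, Mepe, Spp1, Ibsp, Phex and Enpp1 are higher in all 6 DKO libraries than in all 6 control libraries, and in control FFSS replicate 1 lies far from replicates 2 and 3 for Dmp1, Ibsp and Phex.

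DKO cells held more transcript than control cells of Dmp1, Mepe, Spp1, Phex and Enpp1 in both conditions, and of Ibsp under FFSS. Among the 8 genes that passed the filter on low counts, 5 were called higher and 0 lower in DKO static against control static cells, and 6 higher and 0 lower under FFSS. A gene was called at an adjusted p under 0.05 (edgeR quasi-likelihood test, Benjamini-Hochberg over 14904 genes) with more than a 2-fold change. By this rule 15.3% of all genes tested were called in static cells, with 7.98% higher and 7.30% lower, and 17.2% under FFSS, with 8.25% higher and 8.96% lower. Over the 8 genes the median difference on the log2 scale was 1.91 in static cells and 2.44 under FFSS, against 0.01 and −0.05 over all genes tested. The 2 comparisons share no library, although they share both lines. In bulk RNA, fewer cells of a type and less RNA per cell cannot be told apart.

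Mepe, which codes for an inhibitor of mineralisation made by osteocytes, differed most in size. Its reads numbered 3, 0 and 4 in control static libraries and 289, 315 and 337 in DKO static libraries. Under FFSS there were 2 in each control library and 293, 308 and 336 in the DKO libraries. Mepe was thus at or near the floor of 3 counts in all 6 control libraries, and the groups were far from overlapping. Pooled over libraries and scaled by library size, 941 reads against 7 gave a ratio of 141 (95% exact interval 68.2 to 352, counting error only), and 937 against 6 gave 178 (81.5 to 486). The fitted log2 fold change, which depends on the prior count at such levels, was 7.06 (SE 0.27, adjusted p = 1.33e-10) in static cells and 7.38 (SE 0.27, adjusted p = 1.08e-10) under FFSS.

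Dmp1 codes for an acidic matrix protein that osteocytes need for mineralisation and for holding down FGF23. There were 521, 444 and 714 reads in the static control libraries, and 10583, 10068 and 11027 in their DKO counterparts. Control FFSS libraries had 1883, 322 and 318 reads, and DKO FFSS libraries had 19173, 18059 and 16719. All 6 DKO libraries were above all 6 control libraries, with the highest control value in FFSS replicate 1. Dmp1 was 19.8-fold higher in DKO static cells (log2 4.31, SE 0.69, adjusted p = 0.000622) and 24-fold higher under FFSS (log2 4.58, SE 0.69, adjusted p = 0.000419). The FFSS value was 6.02 on the log2 scale without control FFSS replicate 1.

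Spp1 (osteopontin), which binds integrins and CD44 and inhibits crystal growth, was abundant in both lines. Its reads came to 14458, 16008 and 15841 in static control libraries, against 73550, 76640 and 68522 in static DKO libraries. Under FFSS the control libraries gave 24451, 19810 and 17865 and the DKO libraries 95486, 88404 and 81018. DKO values did not overlap control values in either condition. The difference was 4.96-fold in static cells (log2 2.31, SE 0.11, adjusted p = 1.65e-09) and 4.85-fold under FFSS (log2 2.28, SE 0.11, adjusted p = 1.87e-09).

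Ibsp (bone sialoprotein), a nucleator of hydroxyapatite and a marker of mineralising osteoblasts, had the most reads of the set in every library except control FFSS replicates 2 and 3, where Spp1 had more. Control static libraries counted 55283, 47375 and 56586 and DKO static libraries 144175, 147271 and 140653. In control FFSS libraries there were 56817, 9377 and 10277, and in DKO FFSS libraries 140491, 138548 and 138449. The static groups did not overlap, yet the 2.85-fold difference was not called (log2 1.51, SE 0.63, adjusted p = 0.0706). The SE is shared by all 12 libraries and takes in the spread of control FFSS, where replicate 1 had more than 5 times the reads of the other two. With the 6 static libraries alone the same log2 difference of 1.51 had an adjusted p of 2.09e-12, and with the other 11 libraries and not control FFSS replicate 1 an adjusted p of 1.39e-17. Ibsp was called under FFSS, where it was 6.11-fold higher in DKO cells (log2 2.61, SE 0.65, adjusted p = 0.00765), and 4.03 on the log2 scale without control FFSS replicate 1.

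Dspp, which codes for the precursor of the main non-collagenous proteins of dentin, was scarcely detected. It had 0 reads in all 6 control libraries, 3, 2 and 2 in DKO static libraries and 4, 4 and 3 in DKO FFSS libraries. The DKO values lie within 1 count of the floor of 3 counts per library, and the gene was removed by the filter (0 reads in 2 or more libraries) and not tested. Fgf23 was removed by the same filter, with 1 read in control static replicate 3, 1 in each of DKO FFSS replicates 2 and 3, and 0 in the other 9 libraries. At 17.6 to 19.2 M reads per library no difference in Fgf23 was detectable in these cultures.

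**Figure D2:**
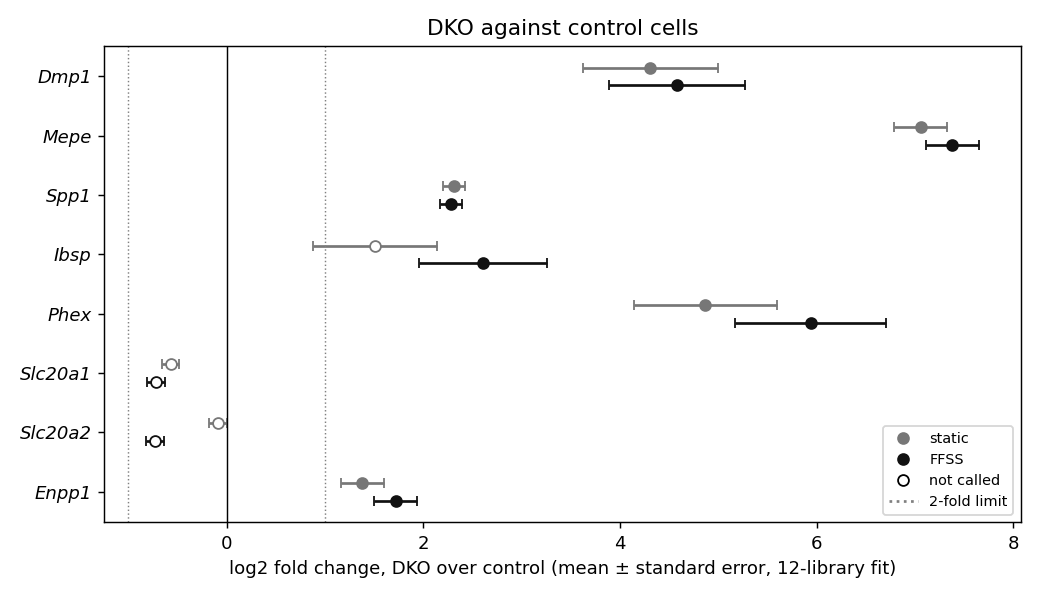
Log2 fold change (x axis) of DKO over control cells for the 8 genes tested, in static and FFSS cultures, with bars for the standard error of the 12-library fit, open points for genes not called and dotted lines at the 2-fold limit. Mepe lies farthest to the right at 7.06 and 7.38, while Slc20a1 and Slc20a2 lie to the left of 0.

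Phex, the cell-surface peptidase that is mutated in X-linked hypophosphataemia and acts on SIBLING peptides, stood with the SIBLING genes. Control static libraries held 696, 453 and 751 reads and DKO static libraries 16384, 19406 and 17052. Control FFSS libraries held 701, 98 and 79, and DKO FFSS libraries 17331, 14364 and 16428. No DKO library came near a control library. Phex was 29.2-fold higher in DKO static cells (log2 4.87, SE 0.73, adjusted p = 0.000397) and 61.4-fold higher under FFSS (log2 5.94, SE 0.77, adjusted p = 0.000158), or 7.71 on the log2 scale without control FFSS replicate 1.

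Enpp1 had 189, 211 and 250 reads in static control libraries, against 523, 567 and 518 in static DKO libraries. With FFSS the control libraries had 313, 150 and 176 reads and the DKO libraries had 675, 590 and 589. The genotypes did not overlap in either condition. Enpp1 was 2.6-fold higher in DKO static cells (log2 1.38, SE 0.22, adjusted p = 0.000288) and 3.29-fold higher under FFSS (log2 1.72, SE 0.22, adjusted p = 4.99e-05).

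The phosphate transporters were not called, and Slc20a1 in both conditions and Slc20a2 under FFSS were lower in DKO cells by less than the 2-fold limit. Slc20a1 had 2558, 2618 and 2587 reads in static control libraries, against 1622, 1716 and 1630 in static DKO libraries, which do not overlap. Under FFSS the control libraries had 3381, 4811 and 4420 reads, against 2175, 2063 and 2451 for DKO. The log2 fold change was −0.57 (SE 0.09, adjusted p = 9.23e-05) in static cells and −0.72 (SE 0.09, adjusted p = 9.98e-06) under FFSS. Slc20a2 had 603, 778 and 663 reads in static control libraries, against 644, 566 and 619 in static DKO libraries, which overlap, with a log2 fold change of −0.09 (SE 0.09, adjusted p = 0.421, approximate 95% interval −0.26 to 0.08). Under FFSS, 1208, 1388 and 1376 reads in control libraries stood against 729, 697 and 672 in DKO libraries, with a log2 fold change of −0.73 (SE 0.09, adjusted p = 6.75e-06). Of the 8 genes, 6 had DKO static libraries above all control static libraries (34.9% of all genes tested did) and 1 had them below (34.1%), so such separation was common across the genome. Under FFSS 6 genes lay above (28.4% of all genes) and 2 below (30.0%).

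Per length, the set spanned more than 5 orders of magnitude only through Dspp and Fgf23, which had at most 4 reads in a library. The order of the genes differed between the lines. In control static cells the mean level was 1349 CPM per kb of exon for Ibsp (SD 135, n = 3), 492 for Spp1 (SD 24.4), 24.4 for Slc20a1 (SD 0.111), 10.6 for Dmp1 (SD 2.68), 9.80 for Slc20a2 (SD 1.20), 5.29 for Phex (SD 1.35), 1.11 for Enpp1 (SD 0.158) and 0.0732 for Mepe (SD 0.0652). Dmp1 and Slc20a2 overlapped in range, as did Mepe, Fgf23 and Dspp in turn, and the other neighbours in this order did not. In DKO static cells the levels were 3840 for Ibsp (SD 65.2), 2439 for Spp1 (SD 122), 211 for Dmp1 (SD 10.9), 154 for Phex (SD 13.4), 16.4 for Slc20a1 (SD 0.460), 10.3 for Mepe (SD 0.840), 9.21 for Slc20a2 (SD 0.624), 2.88 for Enpp1 (SD 0.132) and 0.0290 for Dspp (SD 0.00711). Mepe and Slc20a2 overlapped there. Ibsp alone took 0.754% of all gene reads in DKO static libraries and Spp1 0.381%, against 0.280% and 0.0815% in control static libraries. In control FFSS libraries the mean for Ibsp fell beside that for Spp1 (626 and 629 CPM per kb), with ranges that overlap, since Ibsp ran from 221 to 1412. The order was the same with the length of the longest transcript and with another size factor.

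**Figure D3:**
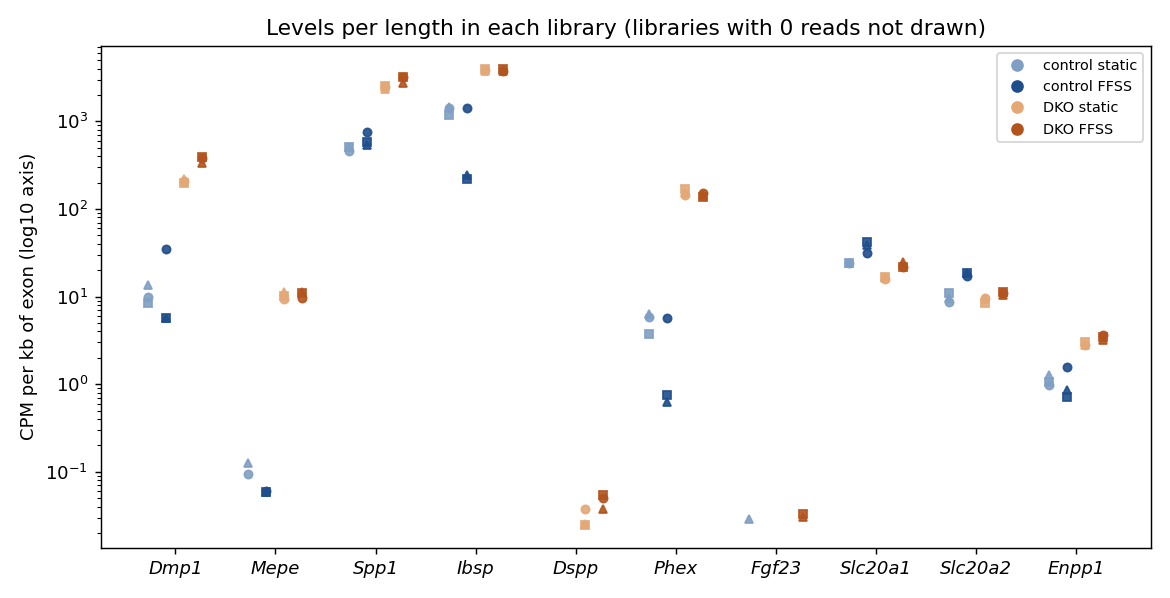
Level of each gene in each library as CPM per kb of exon (log10 axis), coloured by group, with circles, squares and triangles for replicates 1, 2 and 3 and libraries with 0 reads left out. Ibsp and Spp1 are at the top in all groups, and Dmp1 and Phex stand far apart between control and DKO cells.

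The genes next to the SIBLING run were read in the same comparisons. Of the 5 nearest protein-coding genes on either side, 7 of the 10 had enough reads to be tested. By the call rule, 0 of the 7 rose and 1 fell in DKO cells, static or sheared. Of all genes, 7.98% were higher and 7.30% lower in static cells, and 8.25% and 8.96% under FFSS, so that 0 of 7 higher is near the background. Of the 4 tested SIBLING genes, 3 were higher in static cells and 4 under FFSS. With no fold limit, edgeR's adjusted p was under 0.05 for 2 of the 7 in the higher direction in static cells and 3 under FFSS, and such genes made up 27.0% of all genes tested in both conditions. Hsd17b11 had a log2 difference of 0.48 (SE 0.11, adjusted p = 0.00186) and Pkd2, which codes for polycystin-2, of 0.46 (SE 0.08, adjusted p = 0.000163) in static cells. Sparcl1, the nearest of these tested genes before the run and a relative of osteonectin, had −0.06 (SE 0.35, adjusted p = 0.897). Zfp951, the farthest of the 10 downstream, was the one called lower (log2 −2.64, SE 0.53, adjusted p = 0.000758 in static cells, and −2.56, SE 0.50, adjusted p = 0.000594 under FFSS). The difference between these 2 sets of genes was not tested.

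**Figure D4:**
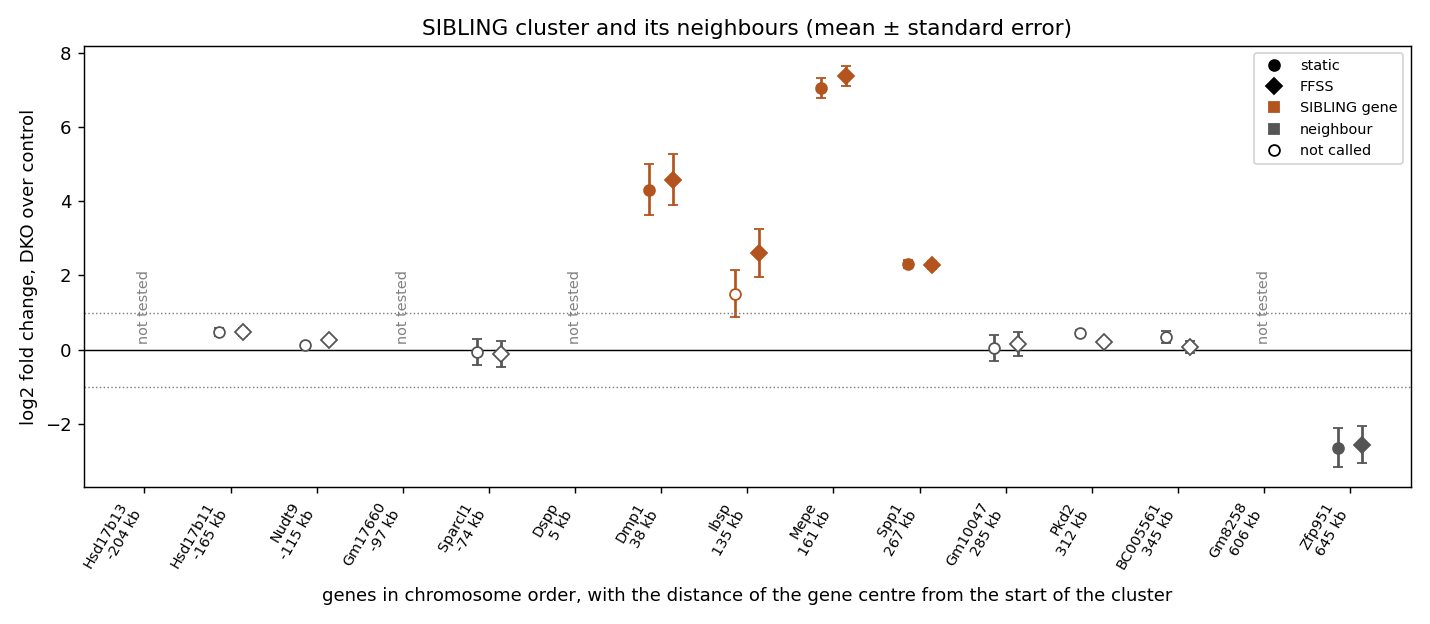
Log2 fold change of DKO over control cells (y axis, bars are standard errors) for the 5 SIBLING genes and their 10 nearest protein-coding neighbours, placed in chromosome order with the distance from the start of the run under each name. Dmp1, Mepe and Spp1 are called in both conditions and Ibsp under FFSS, and of the neighbours Zfp951 alone is called, lower in DKO cells.

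Partner genes of the SIBLING proteins and of phosphate metabolism were then read from a list of 41 gene IDs, of which 30 were tested. DKO static cells had 7 of them called higher and 5 called lower, and DKO FFSS cells 8 and 5, against 7.98% higher and 7.30% lower of all genes in static cells and 8.25% and 8.96% under FFSS. Their median difference was 0.37 and 0.40 on the log2 scale. The list thus held calls in both directions.

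Among 10 tested genes for kinases, proteases and receptors of SIBLING proteins, 2 were higher and 2 lower in both conditions, where 15.3% of all genes in static cells and 17.2% under FFSS were called in either direction, shares that also apply to the 2 groups of genes that follow. Itgb3, the β3 chain of the integrin that binds osteopontin and bone sialoprotein, rose from 128 to 146 reads in control static libraries to 3118 to 3310 in DKO static libraries (log2 4.58, SE 0.16, adjusted p = 4.32e-10). Fam20c, the Golgi kinase that phosphorylates SIBLING proteins, had 3126 to 3419 reads against 11776 to 12125 (log2 1.97, SE 0.15, adjusted p = 5.32e-07). Its pseudokinase partner Fam20a was lower (log2 −2.64, SE 0.17, adjusted p = 8.07e-08 under FFSS). Tll1, a protease of the BMP1 family, which cleaves DMP1 and DSPP, had 35 to 37 reads against 2 to 3 (log2 −3.61, SE 0.31, adjusted p = 3.05e-07).

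In the FGF23 axis 8 gene IDs were tested, with 2 higher in static cells and 3 under FFSS, and 0 lower in either. Vdr, the vitamin D receptor, had 1326 to 1409 reads in static control libraries, against 6861 to 7693 for static DKO (log2 2.46, SE 0.11, adjusted p = 1.71e-09). Cyp27b1, the enzyme that activates vitamin D, was the other one called in static cells (log2 1.20, SE 0.25, adjusted p = 0.000915), and it is named because the count is small. Galnt3, which glycosylates FGF23 and so protects it from cleavage, was not called in static cells (log2 0.22, SE 0.29, adjusted p = 0.562) and was called under FFSS (log2 1.17, SE 0.30, adjusted p = 0.00826), where the value fell to 0.95 when control FFSS replicate 2 or 3 was left out and was 1.74 (adjusted p = 8.2e-20) without replicate 1. With library totals alone the FFSS value of Galnt3 was 0.99, under the 2-fold limit and so not called. Fgfr3 was the third gene called under FFSS (log2 1.31, SE 0.17, adjusted p = 8.1e-05). Xpr1, the phosphate exporter, was 1 of 2 tested transport genes, of which 0 were called (edgeR). Its log2 fold change was 0.73 (SE 0.06, adjusted p = 2.36e-07) in static cells, under the 2-fold limit.

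Of 10 tested genes for pyrophosphate and mineral, 3 were higher and 3 lower in both conditions. Bglap (osteocalcin) had 253 to 330 reads in static control libraries, against 3217 to 3305 for static DKO (log2 3.51, SE 0.37, adjusted p = 3.91e-05), and near-identical copies of this gene make its count uncertain. Ank, which exports ATP and so feeds extracellular pyrophosphate, was higher as well (log2 1.61, SE 0.27, adjusted p = 0.000661). Enpp2 (autotaxin), a relative of Enpp1 that makes lysophosphatidic acid, had 976 to 1025 reads against 30 to 63 (log2 −4.42, SE 0.38, adjusted p = 4.05e-06). Smpd3, a sphingomyelinase needed for bone mineral, was lower (log2 −2.44, SE 0.46, adjusted p = 0.00178). Alpl, the alkaline phosphatase that breaks down pyrophosphate, was not called in static cells (log2 0.16, SE 0.33, adjusted p = 0.72) or under FFSS (log2 0.91, SE 0.33, adjusted p = 0.0409), but reached 1.50 with an adjusted p of 2e-07 under FFSS without control FFSS replicate 1. With the replicate number as a block in the edgeR fit, Alpl was 1.00 under FFSS (adjusted p = 0.0264), called at the edge of the 2-fold limit.

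Some markers of other cell types differed between the genotypes as well. Of 6 chondrocyte markers, 5 were called higher in DKO static cells. Of all genes tested, 7.98% were called higher there and 7.30% lower, shares that also apply to the other marker lists in static cells. The 6 chondrocyte markers summed to 79.0 to 104 CPM in static control libraries, against 2375 to 2966 CPM for static DKO. Col2a1 alone ran from 18 to 173 reads in control static to 29518 to 37616 in DKO static libraries. The 7 osteoblast marker IDs other than Ibsp summed to 28038 to 33906 CPM in static control libraries, against 88248 to 99940 CPM for static DKO, and 1 of them was at 0. Most of that sum was Col1a1 (mean 17134 against 50464 CPM) and Col1a2 (12426 against 39389 CPM). Of the 7 osteoblast markers tested, Ibsp included, 3 were called higher and 0 lower in DKO static cells, and 5 higher and 0 lower under FFSS. Of all genes tested, 8.25% were called higher under FFSS and 8.96% lower. Alpl, Runx2 and Sp7 were not among those called in static cells. For the osteocyte label, Sost had 28 to 236 reads in static control libraries, against 36753 to 38134 for static DKO, and Pdpn 524 to 562 against 90 to 96. Macrophage and osteoclast markers summed to 24.1 to 28.8 CPM against 3.08 to 3.40, most of it Cd68 (448 to 542 reads against 39 to 47, called lower), while Csf1r, the other one tested, had 5 to 8 reads against 11 to 15 and was called higher, although its exons overlap those of Hmgxb3, a gene with far more counts, which makes so low a count uncertain. The adipocyte markers summed to 32.0 to 36.5 CPM against 18.8 to 22.9, nearly all of it Cebpa (613 to 692 reads against 341 to 411). Cebpa was the only 1 of the 4 adipocyte markers tested and was not called (log2 −0.77). Endothelial and skeletal muscle markers stayed at or under 1.03 CPM in every library. The part of these markers in the result for the SIBLING and phosphate genes was not tested.

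FFSS in control cells gave 0 calls among the 8 genes by edgeR's quasi-likelihood test, while 5.93% of all genes tested were called. At an unadjusted p under 0.05 there were 3, against 46.3% of all genes, and DESeq2 called 0, with or without its outlier filter. With no fold limit 3 genes had an adjusted p under 0.05, all higher (Slc20a2, Slc20a1 and Spp1), against 35.8% of all genes with 17.7% higher. The static values given above are the base for what follows.

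Of these 3 genes, Slc20a2 rose by the most similar amount in its 3 libraries. Its FFSS libraries stood 0.80, 0.93 and 0.93 above the control static mean on the log2 CPM scale, and the fitted log2 fold change was 0.88 (SE 0.09, adjusted p = 1.4e-05). Slc20a1 differed by 0.35, 0.79 and 0.69 in the 3 libraries (log2 fold change 0.62, SE 0.09, adjusted p = 0.000242). Both phosphate transporters were thus above their static libraries in all 3 FFSS libraries. Spp1 stood 0.63, 0.26 and 0.13 above the static mean (log2 fold change 0.35, SE 0.11, adjusted p = 0.0231), and its adjusted p rose above 0.05 when any 1 control static library was left out (up to 0.0839) or when the 6 control libraries were fitted alone (0.0879). In this comparison 3 of the 8 genes lay above all static libraries, against 19.3% of all genes tested.

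Dmp1, Ibsp, Phex and Enpp1 gave different answers by library. Dmp1 was 1.74 above the static mean in FFSS replicate 1 and −0.87 from it in both other replicates. Ibsp differed by 0.07, −2.60 and −2.45, and Phex by 0.15, −2.74 and −3.02. Enpp1 differed by 0.50, −0.62 and −0.37. In each of these 4 genes replicate 1 lay at or above the static mean and replicates 2 and 3 below it, and replicate 1 was also the library with the share of reads outside genes nearest to the static libraries.

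Over all 3 libraries none of the 4 passed, with log2 fold changes of 0.54 for Dmp1 (SE 0.64, adjusted p = 0.551), −1.11 for Ibsp (SE 0.62, adjusted p = 0.197), −1.17 for Phex (SE 0.69, adjusted p = 0.218) and −0.09 for Enpp1 (SE 0.23, adjusted p = 0.791). Without replicate 1, Ibsp was −2.53 (adjusted p = 1.74e-19) and Phex −2.93 (adjusted p = 5.61e-05), so that 2 of the 8 genes were called lower, against 11.3% of all genes called in either direction in that fit. Dmp1 turned to −0.90 (adjusted p = 0.00443), and Enpp1 to −0.51 (adjusted p = 0.000699). Osteoblast markers other than Ibsp had a summed level of 10132 to 28381 CPM in control FFSS libraries. In control static libraries it was 28038 to 33906 CPM, which overlaps. Of the 7 osteoblast markers tested, Ibsp included, 2 were called lower and 0 higher over all 3 libraries. Of all genes tested, 1.97% were called lower and 3.96% higher. The part of these markers in the result was not tested. In an edgeR fit with the share of reads outside genes as a covariate, Dmp1 was called in control cells at 2.17 (adjusted p = 0.00103). Ibsp was then 0.45, Phex 0.62 and Enpp1 0.66 (adjusted p = 0.00659). The slope of that covariate rests mainly on the control FFSS libraries. Mepe, with 2 reads in each control FFSS library, could not show a fall at this depth, and no rise was called (log2 −0.28, SE 0.69, adjusted p = 0.797).

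**Figure D5:**
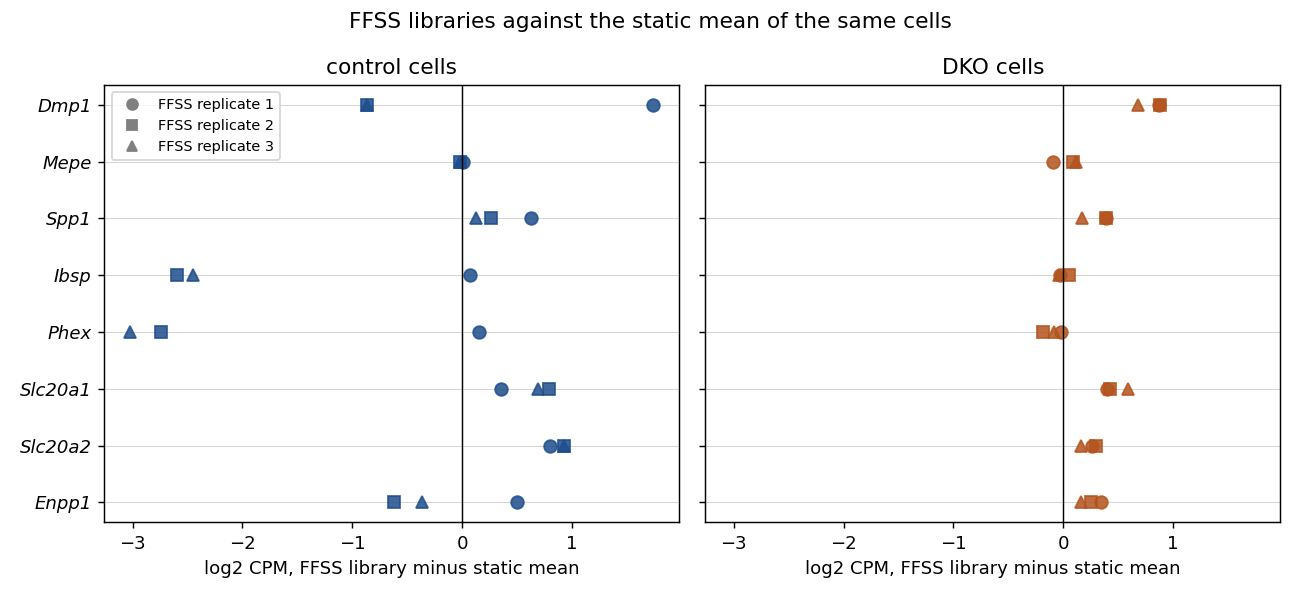
Difference of each FFSS library from the static mean of the same cells on the log2 CPM scale (x axis), for the 8 genes tested, in control cells (left) and DKO cells (right). In control cells replicate 1 (circles) lies to the right of replicates 2 and 3 for Dmp1, Ibsp, Phex and Enpp1, and in DKO cells the 3 libraries lie close together.

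In DKO cells FFSS also gave 0 calls among the 8 genes by edgeR, where 0.0872% of all genes were called. There were 3 at an unadjusted p under 0.05, against 13.5% of all genes, and DESeq2 called 0, with or without its outlier filter. With no fold limit 1 gene, Slc20a1, had an adjusted p under 0.05, against 0.872% of all genes. Its FFSS libraries stood 0.40, 0.43 and 0.59 above the static mean (log2 fold change 0.47, SE 0.09, adjusted p = 0.0296), and the adjusted p rose above 0.05 when any 1 DKO library or any 1 control static library was left out (up to 0.148). Of the 8 genes, 5 had all FFSS libraries above all static libraries (Dmp1, Spp1, Slc20a1, Slc20a2 and Enpp1), against 14.0% of all genes tested.

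Dmp1 was the largest of these, at 0.87, 0.88 and 0.68 above the DKO static mean. The log2 fold change was 0.81 with a wide error that comes from the control libraries (SE 0.59, adjusted p = 0.645), and in a fit of the 6 DKO libraries alone it was 0.82 with an adjusted p of 1.86e-09. In that fit Spp1 (log2 0.33, adjusted p = 0.000663), Slc20a1 (0.48, adjusted p = 1.6e-06), Slc20a2 (0.25, adjusted p = 0.011) and Enpp1 (0.26, adjusted p = 0.0107) also had an adjusted p under 0.05, which makes 5 of the 8, against 11.9% of all genes tested. None exceeded the 2-fold limit. Ibsp differed by −0.03, 0.05 and −0.04 and Phex by −0.02, −0.18 and −0.08, and Mepe by −0.09, 0.09 and 0.12.

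The genotypes were compared in their response by the interaction term, the FFSS effect in DKO cells minus that in control cells. Of the 8 genes 0 were called by edgeR (0.651% of all genes), 1 had an unadjusted p under 0.05 (23.8% of all genes), and DESeq2 called 0, with or without its outlier filter. That gene was Slc20a2, whose response was smaller in DKO cells (log2 difference of −0.64, SE 0.12, adjusted p = 0.0137, against 3.97% of all genes at an adjusted p under 0.05 with no fold limit). Its value stayed between −0.74 and −0.57 over single libraries left out, with adjusted p-values from 8.79e-06 to 0.0507, the highest without control static replicate 3. Slc20a1 had −0.15 (SE 0.13, adjusted p = 0.492, approximate 95% interval −0.40 to 0.10) and Spp1 −0.03 (SE 0.15, adjusted p = 0.922, interval −0.33 to 0.27). Ibsp had 1.10 (SE 0.87, adjusted p = 0.472), Phex 1.08 (SE 0.92, adjusted p = 0.507) and Dmp1 0.28 (SE 0.87, adjusted p = 0.875). Without control FFSS replicate 1 these 3 were called, with 2.52 for Ibsp (adjusted p = 5.3e-17), 2.84 for Phex (adjusted p = 0.00029) and 1.72 for Dmp1 (adjusted p = 0.000425), against 7.60% of all genes in that fit. Whether a difference between the genotypes in the FFSS response of Dmp1, Ibsp and Phex was called thus turned on that 1 library, and with it none was.

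In the list of partner genes, FFSS in control cells gave 1 call higher and 1 lower among 30 tested, near the 5.93% of all genes, and 0 calls in DKO cells and in the interaction, where 0.0872% and 0.651% of all genes were called. Tll1 was the higher one, with 35 to 37 reads in control static and 72 to 94 in control FFSS libraries (log2 1.18, SE 0.18, adjusted p = 0.000345). Phospho1, a phosphatase of matrix vesicles that frees phosphate for mineral, was the lower one (log2 −1.59, SE 0.41, adjusted p = 0.0168), with 1011 to 1141 static reads and 686, 197 and 230 under FFSS, and was not called without control FFSS replicate 3 (adjusted p = 0.0522), while it was −2.42 without replicate 1 (adjusted p = 9.8e-14). Its exons overlap those of Abi3 and Zfp652, which makes its count uncertain. Galnt3 had 1698, 737 and 712 reads under FFSS against 1738 to 1876 in static libraries (log2 −0.86, SE 0.30, adjusted p = 0.0508), and Alpl 29144, 10369 and 13561 against 29408 to 32099 (log2 −0.87, SE 0.33, adjusted p = 0.0666). The split between replicate 1 and the others was the same as in Ibsp and Phex. Without replicate 1, Galnt3 was −1.43 (adjusted p = 3.66e-17) and Alpl −1.47 (adjusted p = 4.46e-07), and 9 of the 30 were called, against 11.3% of all genes in that fit. In the interaction 9 of the 30 were also called without it, against 7.60% of all genes. Fam20c, Ank and Xpr1 were not called in control cells, with log2 fold changes of 0.23 (SE 0.15), 0.36 (SE 0.26) and −0.03 (SE 0.06). In DKO cells the 5 genes Fam20c, Galnt3, Alpl, Ank and Xpr1 had 0.36, 0.09, −0.12, 0.23 and −0.30, of which only Xpr1 had an adjusted p under 0.05 (0.0367), and their interaction values were 0.13, 0.95, 0.75, −0.13 and −0.27. Without control FFSS replicate 1 the interaction was called for Galnt3 at 1.51 (adjusted p = 8.03e-15) and Alpl at 1.35 (adjusted p = 2.06e-05), and Ank turned to 0.35 (adjusted p = 0.00108). At an unadjusted p under 0.05 the edgeR counts were 4 of 30 in DKO cells and 8 in the interaction, shares near the 13.5% and 23.8% of all genes.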

How the data were processed

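Total RNA of Ocy454 cells was sequenced as 12 libraries, 3 per group. The authors aligned short single-end BGISEQ reads with STAR to mm9 and counted them per Ensembl gene with HTSeq, and the deposited counts are raw and not normalised. Reads placed at several positions, or in 2 genes at once, are not counted by HTSeq, which lowers overlapping or near-identical genes. The 5 HTSeq summary lines were kept out of library totals. Samples were grouped by title. Symbols came from an Ensembl annotation of the same build (98.9% of IDs matched).

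Counts were tested with edgeR 4.0.16 in R 4.3.3 (robust quasi-likelihood fit, TMM, 4 groups, all 12 libraries). As in the study, a gene needed reads in all libraries but 1 to be tested (0 counts in 2 or more removed it), and a call needed a Benjamini-Hochberg p under 0.05 and a difference of over 2-fold. CPM used TMM-scaled totals, and log2 CPM a prior count of 2. Depth was 17.6 to 19.2 M gene reads per library, and intervals and floors (3 counts) cover counting error only, as reads carry no molecular identifiers. Named genes were the 10 members, Fam20c, Galnt3, Alpl, Ank and Xpr1, and in each comparison the 3 highest and 3 lowest called genes of the partner list and of the neighbours; Hsd17b11, Pkd2, Sparcl1, Cyp27b1 and Fgfr3 were chosen after their values were seen. Markers of osteocytes, osteoblasts, chondrocytes, adipocytes, macrophages and osteoclasts, endothelium and skeletal muscle were read as 7 lists. Alternatives were DESeq2 1.42.0, other size factors and filters, 6-library fits, a replicate block, the share of reads outside genes as a covariate, and each library left out. Members and lists were chosen with earlier results of these data known. Motifs were searched in the 250 bases before each start and the 50 bases after it were left out. No protein sequence was used here.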

Additional observations from a re-analysis of the deposited data

Results flagged for a closer look

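The FFSS response of Slc20a2 differed between the genotypes by a test of the difference itself, with a log2 value of −0.64 for DKO minus control (SE 0.12, adjusted p = 0.0137 by edgeR). All 3 control FFSS libraries were 0.80 to 0.93 above their static mean on the log2 CPM scale, and all 3 DKO FFSS libraries 0.16 to 0.30 above theirs. Over single libraries left out the adjusted p ran from 8.79e-06 to 0.0507, the highest without control static replicate 3.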

How the results depend on the processing

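For DKO against control cells, with RLE size factors, library totals alone, filterByExpr, the 6 libraries of the comparison, the covariate or the replicate block, 5 or 6 of the members were called in static cells and 6 under FFSS, and with no filter, which lets Dspp and Fgf23 be tested, 6 and 7. DESeq2 called 3 in each, because its outlier filter gave Dmp1, Ibsp and Phex no adjusted p, and without that filter (chosen after seeing the data) it called 6 in each. Leaving out each library in turn gave 5 to 6 and 6 to 6, where 2127 to 2412 and 2289 to 2994 genes were called over all tested. The SIBLING members kept a positive difference in all of these. Slc20a2 in static cells ran from −0.16 to 0.01 over single libraries left out.

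FFSS results moved more. Members called in control cells were 0 to 2 over single libraries left out and 1 with library totals alone (Slc20a2 at 1.01), and those in the interaction 0 to 3, the higher value in each case without control FFSS replicate 1. In that fit 11.3% of all genes were called in control cells and 7.60% in the interaction. With no fold limit the counts of members were 3 in control cells (35.8% of all genes), 1 in DKO cells (0.872%) and 1 in the interaction (3.97%). Over single libraries left out, log2 fold changes in control cells ran from −0.90 to 0.93 for Dmp1, −0.85 to 0.32 for Mepe, −0.51 to 0.12 for Enpp1, −0.02 to 0.35 for Fam20c and −0.12 to 0.56 for Ank. In DKO cells they ran from −0.02 to 0.10 for Mepe and −0.03 to 0.01 for Ibsp. In the interaction they ran from −0.12 to 1.72 for Dmp1, −0.28 to 0.88 for Mepe, −0.13 to 0.13 for Spp1 and −0.34 to 0.35 for Ank. With library totals alone Enpp1 was 0.02 and Xpr1 0.10 in control cells and Ibsp 0.01 in DKO cells, where Ibsp was also 0.01 with 6 libraries and 0.00 with the block. Phospho1 was not called with the 6 control libraries (−1.58, adjusted p = 0.0722) or without control FFSS replicate 3 (−1.33, adjusted p = 0.0522).

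The share of reads outside genes as a covariate also moved many values, and it differs little within 3 of the 4 groups, so that its slope rests mainly on control FFSS. With it 1 member was called in control cells (Dmp1 at 2.17) and 1 in DKO cells (Dmp1 at 1.54). In static cells it raised the DKO difference of Ibsp to 2.79 (adjusted p = 1.19e-05, called), that of Dmp1 to 5.65 and that of Phex to 6.40, and moved that of Smpd3 to −1.55. In control cells the values were 0.45 for Ibsp, 0.62 for Phex, 0.66 for Enpp1, 0.09 for Galnt3, 0.04 for Alpl, 1.17 for Ank (adjusted p = 1.29e-05) and −0.40 for Phospho1 (adjusted p = 0.244, not called). In DKO cells they were −0.14 for Mepe, 0.70 for Ibsp, 0.76 for Phex and 0.23 for Alpl, and in the interaction −0.62 for Dmp1, 0.07 for Slc20a1, −0.13 for Enpp1 and −0.21 for Fam20c. The cause was not tested for any of these changes.

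Replicate numbers did not pair the libraries. Deviations from group means had a mean correlation of 0.00226 for libraries of the same number and −0.00116 for others, and 4 of 12 libraries correlated best with their own number. With the replicate block the members called were 0, 0, 0, 5 and 6 for the control response to FFSS, the DKO response, the interaction, and the genotypes compared without and with FFSS, and genes called over all tested were 882, 14, 84, 2271 and 2545, against 884, 13, 97, 2278 and 2565 without it. Over all genes, DESeq2 called 175 in the interaction and the fit without control FFSS replicate 1 called 1133, and in control cells that fit called 1683 and the fit of the 6 control libraries 453, against 884 with all 12.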
